A study of Mus musculus with 2 samples.

Results

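Open chromatin around 10 genes of the core cell cycle engine was examined in mouse fetal liver progenitors with and without the chromatin remodelling subunit BRD9. The genes were the cyclin-dependent kinases Cdk2, Cdk4 and Cdk6, the cyclins Ccnd1, Ccnd2, Ccnd3, Ccne1 and Ccna2, and the inhibitors Cdkn1b and Cdkn2c. Peaks of both deposited lists were merged where they shared at least 1 bp, and a region was kept when it overlapped one of these genes or lay within 30 kb of it (mm10, RefSeq gene spans). This gave 57 of 29076 regions, of which 44 were present in the knockout list and 53 in the control list. No region fell to more than 1 of the genes.

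The measurements were ATAC-seq peak lists, which mark DNA open to a transposase. The knockout library came from CD45.2-positive Vav1-iCre Brd9fl/fl embryos and the control library from CD45.2-positive Brd9fl/fl embryos, both of strain C57BL/6 at E14.5. Each was made from 150000 fetal liver cells sorted as lineage-negative and c-Kit-positive, which selects for the stem and progenitor cells of blood. Both groups carry floxed Brd9, and the control carries no Cre. Cre is expressed from Vav1 regulatory sequence, which is active in the blood lineage and not in hepatocytes. There was 1 library per genotype, and the number of embryos behind each was not stated in the labels. Every difference is therefore one between 2 libraries, with no test between genotypes. Intervals are 95% intervals for counting error only and do not cover variation between embryos.

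D-type cyclins bind CDK4 and CDK6 in response to growth factors and begin to phosphorylate the retinoblastoma protein, which releases E2F factors. Cyclin E with CDK2 carries cells into DNA replication, and cyclin A2 with CDK2 acts during replication and beyond. The inhibitor p27, made from Cdkn1b, binds cyclin-CDK complexes, while p18, made from Cdkn2c, binds CDK4 and CDK6. In the mouse, loss of all D-type cyclins, or of CDK4 and CDK6 together, impairs fetal blood formation.

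The value used for each peak was its number of summit reads, meaning the extended reads that cover its highest point, recovered from the deposited fold and p-value. The knockout list held 22348 peaks and the control list 25330, with medians of 28 and 37 summit reads. Background depth in the knockout library was 0.640 times that of the control library. A scaled ratio is knockout over control summit reads divided by this number, so 1 means equal reads at equal depth. The region at an end of Brd9 had 151 summit reads in the knockout and 217 in the control (scaled ratio 1.09, 0.877 to 1.34). Which exons the floxed alleles remove was not stated in the labels, and this region therefore does not check them. Regions at the Y-linked genes Ddx3y and Uty were in the knockout list alone, and a region at Xist had a ratio of 0.599 (0.388 to 0.905). Sex and genotype therefore cannot be told apart, though none of the 10 genes is on a sex chromosome. Of 10 progenitor markers, 6 had a region at their start or gene end in both lists, while Cd34, Gata2, Vav1 and Ptprc had none in either list. The scaled ratios of the 6 differed in direction. Intervals lay below 1 at Tal1 (0.445, 0.329 to 0.594) and Lmo2 (0.504, 0.288 to 0.846), above 1 at Spi1 (1.98, 1.19 to 3.31) and Runx1 (1.29, 1.01 to 1.64), and included 1 at Kit (0.931, 0.674 to 1.28) and Myb (0.781, 0.463 to 1.29). The part of the mix of progenitor cells in the results was not tested. None of 4 hepatocyte and 4 macrophage markers had such a region.

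RefSeq start windows, which run from 250 bases before to 50 after a gene's start, were at hand for 7 of the 10 genes (assembly GRCm38.p6, whose coordinates are those of mm10). Those of Cdk2 and Cdk4 are shown because their regions had intervals on opposite sides of 1, and those of Ccne1 and Cdkn1b as examples whose intervals included 1. Capitals mark CCAAT boxes (CCAAT), E-boxes (CACGTG) and GC boxes (GGGCGG), on either strand. Where marked motifs overlap, their capitals run together. The windows lie at chr10:128705002-128705301 on the minus strand (Cdk2), chr10:127063285-127063584 on the plus strand (Cdk4), chr7:38107441-38107740 on the minus strand (Ccne1) and chr6:134920151-134920450 on the plus strand (Cdkn1b), and are written 5′ to 3′ in the direction of the gene.
Cdk2: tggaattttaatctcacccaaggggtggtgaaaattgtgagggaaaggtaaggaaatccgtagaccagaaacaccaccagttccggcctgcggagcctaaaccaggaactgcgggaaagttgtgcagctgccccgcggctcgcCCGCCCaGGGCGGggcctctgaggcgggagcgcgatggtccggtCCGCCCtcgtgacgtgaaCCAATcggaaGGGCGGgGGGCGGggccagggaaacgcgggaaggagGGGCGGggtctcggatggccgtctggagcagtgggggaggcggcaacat
Cdk4: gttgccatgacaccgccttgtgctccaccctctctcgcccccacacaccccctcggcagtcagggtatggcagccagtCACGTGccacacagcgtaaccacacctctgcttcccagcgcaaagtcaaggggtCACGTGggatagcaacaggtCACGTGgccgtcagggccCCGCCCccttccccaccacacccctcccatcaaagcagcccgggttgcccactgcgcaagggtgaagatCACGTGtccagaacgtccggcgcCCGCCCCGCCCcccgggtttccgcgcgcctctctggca
Ccne1: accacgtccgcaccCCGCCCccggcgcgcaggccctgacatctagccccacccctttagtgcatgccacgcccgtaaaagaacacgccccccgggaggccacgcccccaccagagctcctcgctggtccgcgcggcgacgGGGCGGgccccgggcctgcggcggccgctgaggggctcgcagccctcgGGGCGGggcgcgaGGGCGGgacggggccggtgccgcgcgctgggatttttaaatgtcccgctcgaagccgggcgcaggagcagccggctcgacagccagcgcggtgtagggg
Cdkn1b: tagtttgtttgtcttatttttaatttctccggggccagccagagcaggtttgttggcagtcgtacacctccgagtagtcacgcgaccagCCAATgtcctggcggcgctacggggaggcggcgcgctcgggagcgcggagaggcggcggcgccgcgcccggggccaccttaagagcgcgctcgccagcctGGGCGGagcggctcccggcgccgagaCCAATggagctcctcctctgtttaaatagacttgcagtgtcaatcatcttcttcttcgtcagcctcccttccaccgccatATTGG

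All 4 sequences were rich in GC bases, from 62% in Cdkn1b to 76% in Ccne1, where windows in regions of both lists had a median of 62% and all windows 52.7%. The Cdk4 window held 4 E-boxes, the letters bound by MYC and its relatives, between 172 bases before its start and 6 bases before it. Of 32817 windows, 7.15% held an E-box, and 8 held at least 4. Of the 11018 windows in regions of both lists, 11.2% held an E-box, and 3 held at least 4. Among the 7 member windows in such regions, 2 held one. In Cdk2 there were 6 GC boxes, the letters bound by Sp factors, and 1 CCAAT box at 45 to 41 bases before the start. Ccne1 had 4 GC boxes and neither of the other marked motifs. Cdkn1b had 3 CCAAT boxes and 1 GC box. A GC box was in 6 of the 7 member windows that lay in regions of both lists, against 68.8% of all 11018 such windows, and a CCAAT box in 3 of 7, against 39.2%. The E2F letters TTTCGCGC and TTTGGCGC were searched on both strands and found in none of the 7 windows and in 1.88% of all such windows. These letters are a description of the windows, not evidence of binding.

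Among the kinases, the region at the start of Cdk2 had fewer reads in the knockout than the depth of the libraries would give. Cdk2, the partner of cyclins E and A, had 69 summit reads in the knockout (53.7 to 87.3) and 161 in the control (137 to 188) at chr10:128704334-128705542, the region that holds the Cdk2 window above. Its scaled ratio was 0.669 (0.497 to 0.893), and the interval lay below 1. In bulk cells, fewer cells with an open site and less opening per cell cannot be told apart, here and below. The region also lies inside the RefSeq span of Pmel, a pigment cell gene. At Cdk4, a partner of D-type cyclins, there were 246 reads in the knockout (216 to 279) and 321 in the control (287 to 358) at chr10:127063228-127064046. The scaled ratio of 1.20 (1.01 to 1.42) had an interval just above 1. Cdk6, the other partner of D-type cyclins, had 91 reads in the knockout (73.3 to 112) and 183 in the control (157 to 212) at chr5:3341231-3344624, a scaled ratio of 0.777 (0.597 to 1.004). Its region joined 2 peaks from each list and also covers the start of Gm36470. The 3 kinase genes thus differed in direction, with an interval below 1 at Cdk2, one above 1 at Cdk4 and one that reached 1 at Cdk6.

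Cyclin genes ranged from the most reads of the set to no region at all. Ccna2, which encodes cyclin A2, had 269 summit reads in the knockout (238 to 303) and 511 in the control (468 to 557) at chr3:36571471-36572356, within 1 kb of an end of the gene and also of an end of Bbs7, its neighbour. The scaled ratio was 0.822 (0.707 to 0.955), with an interval below 1. The authors' deposited fold over the local background was 14.3 in the knockout list and 14.4 in the control list, beside a recovered local background of 17.8 reads in the knockout and 34.7 in the control, a scaled ratio of 0.803. At Cdk2 these folds were 12.4 and 13.9, with backgrounds of 4.66 and 10.7 reads. Ccne1, the cyclin E1 gene, had 180 reads in the knockout (155 to 208) and 248 in the control (218 to 281) at chr7:38107020-38108247, a ratio of 1.13 (0.930 to 1.38).

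The D-type cyclin genes differed from each other in where regions were listed. At an end of Ccnd2, which encodes cyclin D2, chr6:127150577-127152798 had 88 reads in the knockout (70.6 to 108) and 151 in the control (128 to 177), a ratio of 0.910 (0.692 to 1.19). This region also lies within the RefSeq span of 9330179D12Rik. Ccnd3, the cyclin D3 gene, has 2 RefSeq start windows, and no region covered the outer one. Its inner start lay in chr17:47593383-47593993, with 109 reads in the knockout (89.5 to 131) and 143 in the control (121 to 168), a ratio of 1.19 (0.919 to 1.54). Ccnd1, the cyclin D1 gene, had no region in either list within 1 kb of its ends or inside the gene. The nearest lay 1753 bp from the gene, at chr7:144941584-144942251, and only the control list held it, with 24 reads (15.4 to 35.7). The absence of a listed peak does not show closed chromatin.

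Neither inhibitor gene had an interval that left out 1. Cdkn1b had 197 reads in the knockout (170 to 227) and 323 in the control (289 to 360) at chr6:134919781-134921204, a scaled ratio of 0.952 (0.794 to 1.14). Cdkn2c had 92 reads in the knockout (74.2 to 113) and 120 in the control (99.5 to 143) at chr4:109665692-109667211, a ratio of 1.20 (0.902 to 1.58). The interval at Cdkn2c still allows a ratio above that of Cdk4, so the lack of a call here does not show equal accessibility.

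Across the 9 genes with a start or gene-end region, 1 had an interval above 1 and 2 below 1. Over all protein-coding genes, 9.02% of 9144 such regions had an interval above 1 and 7.43% below 1. Summed over the 9 regions there were 1341 reads in the knockout and 2161 in the control, a scaled ratio of 0.969 (0.905 to 1.04). The median log2 scaled ratio was -0.07, beside 0.01 over all such regions. All 9 had at least 100 control reads, and each ratio lay within the central 95% of start regions with that many, 0.659 to 1.37. Cdk2, at 0.669, stood close to the lower end of that range. By summit reads the order was Ccna2, Cdk4, Cdkn1b, Ccne1, Ccnd3, Cdkn2c, Cdk6, Ccnd2 and Cdk2 in the knockout. In the control it was Ccna2, Cdkn1b, Cdk4, Ccne1, Cdk6, Cdk2, Ccnd2, Ccnd3 and Cdkn2c. Poisson intervals of neighbours in the order overlapped except between Ccne1 and Ccnd3 in the knockout, and between Ccna2 and Cdkn1b, Cdk4 and Ccne1, and Ccne1 and Cdk6 in the control.

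**Figure D1:**
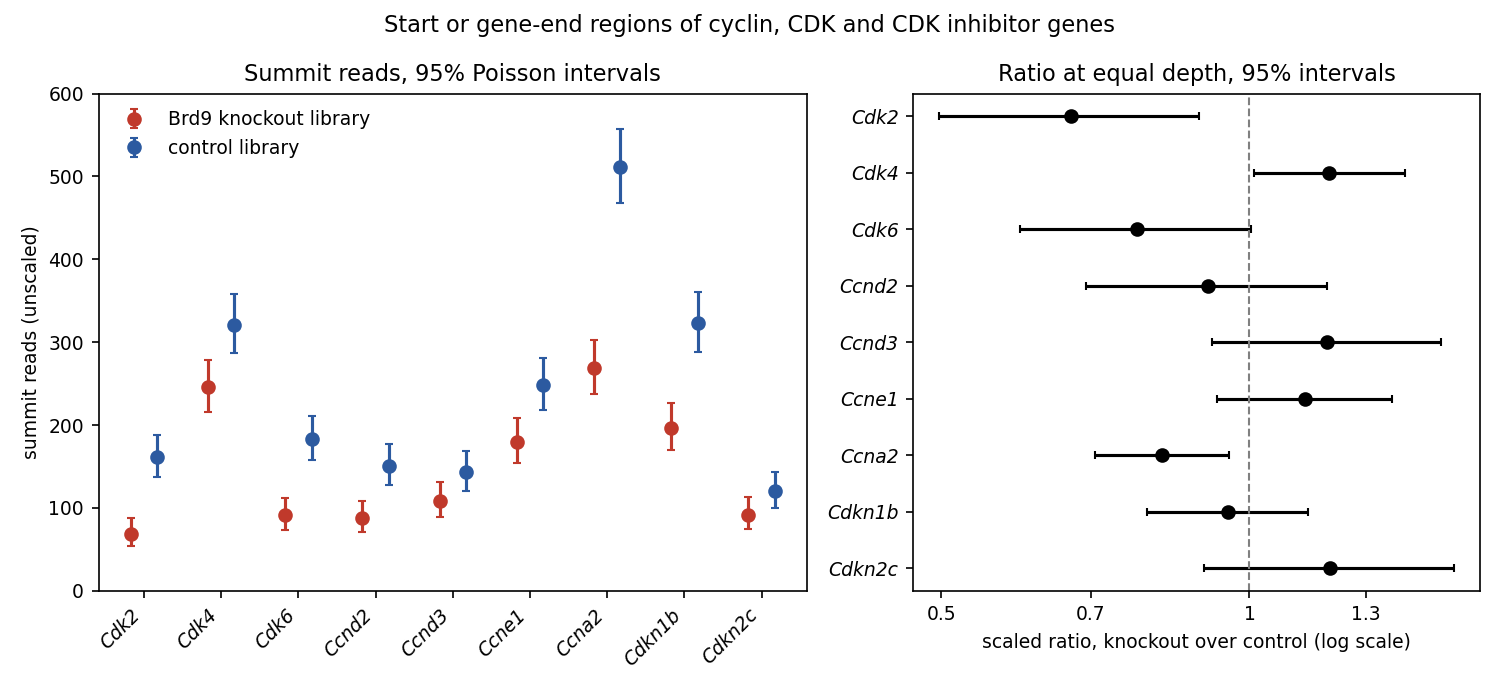
The left panel plots unscaled summit reads at the start or gene-end region of 9 genes, knockout left of control, with 95% Poisson intervals, and the right panel the scaled ratio of knockout over control on a log axis with 95% intervals. The interval lies below 1 at Cdk2 (0.669) and Ccna2 (0.822) and above 1 at Cdk4 (1.20).

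Of the 57 regions, 4 were in the knockout list alone, 13 in the control list alone and 40 in both. These are 7.02% (1.95 to 17.0), 22.8% (12.7 to 35.8) and 70.2% (56.6 to 81.6), beside 13.0%, 23.4% and 63.6% of all merged regions. Within 30 kb of any protein-coding gene the shares were 12.3%, 22.6% and 65.1%. Each interval held both background shares. Regions in 1 list alone were mostly weak. The 4 in the knockout list alone had 6 to 11 summit reads, and the 13 in the control list alone had 10 to 110, with a median of 19.

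Cdk6, the longest of the 10 genes at 190005 bp, held the largest number of regions in 1 list alone. Of 10 regions within 30 kb of it, 4 were in both lists. The rest lay inside the gene, 5 in the control list alone and 1 in the knockout list alone. Over all merged regions, 23.4% were in the control list alone and 13.0% in the knockout list alone. The strongest of the 5, at chr5:3354262-3354844, had 33 control reads (22.7 to 46.3), and chr5:3497535-3498096 had 24 (15.4 to 35.7), while the others had 17 or 18. The 1 region in the knockout list alone had 11 reads (5.49 to 19.7). At equal depth, 33 control reads correspond to 21.1 in the knockout library. Of 1475 knockout peaks with a background within 10% of the scaled one there, 360 had fewer reads than that and were still listed. Both regions inside Cdk6 that were in both lists had intervals that included 1, with 20 and 38 reads in the knockout and control at the first and 21 and 33 at the second.

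The 2 strongest regions in 1 list alone lay just inside Ccne1 and Ccna2, and both were in the control list. In Ccne1, chr7:38105446-38105964 had 108 control reads (88.6 to 130) and a width of 519 bp, 1056 bp from the region at the start. In Ccna2, chr3:36569811-36570273 had 110 control reads (90.4 to 133) and a width of 463 bp, 1198 bp from the gene-end region. Both stood on a high local background, of 26.8 and 35.1 reads, and had deposited folds of 3.92 and 3.08. The regions at the Ccne1 start and the Ccna2 gene end had similar control backgrounds, 26.6 and 34.7 reads. Whether reads of those regions make up this background was not tested. At equal depth the 108 and 110 control reads correspond to 69.2 and 70.4 knockout reads. Among listed knockout peaks of like background, 35 of 476 at the Ccne1 level and 6 of 276 at the Ccna2 level had fewer reads. The lowest of these listed peaks had 37 and 46 reads. Like background here means the control background scaled for depth, 17.1 and 22.5 reads. These are shares of listed peaks, so they do not give how often a peak of this height goes unlisted. The knockout reads at the 2 regions inside Ccne1 and Ccna2 are not in the peak list. The shortest listed peak had 376 bp, and the part of peak width in their absence was not tested. The other regions with at least 20 reads in 1 list alone were that near Ccnd1 and one inside Marchf9 near Cdk4, with 20 control reads (12.2 to 30.9).

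**Figure D2:**
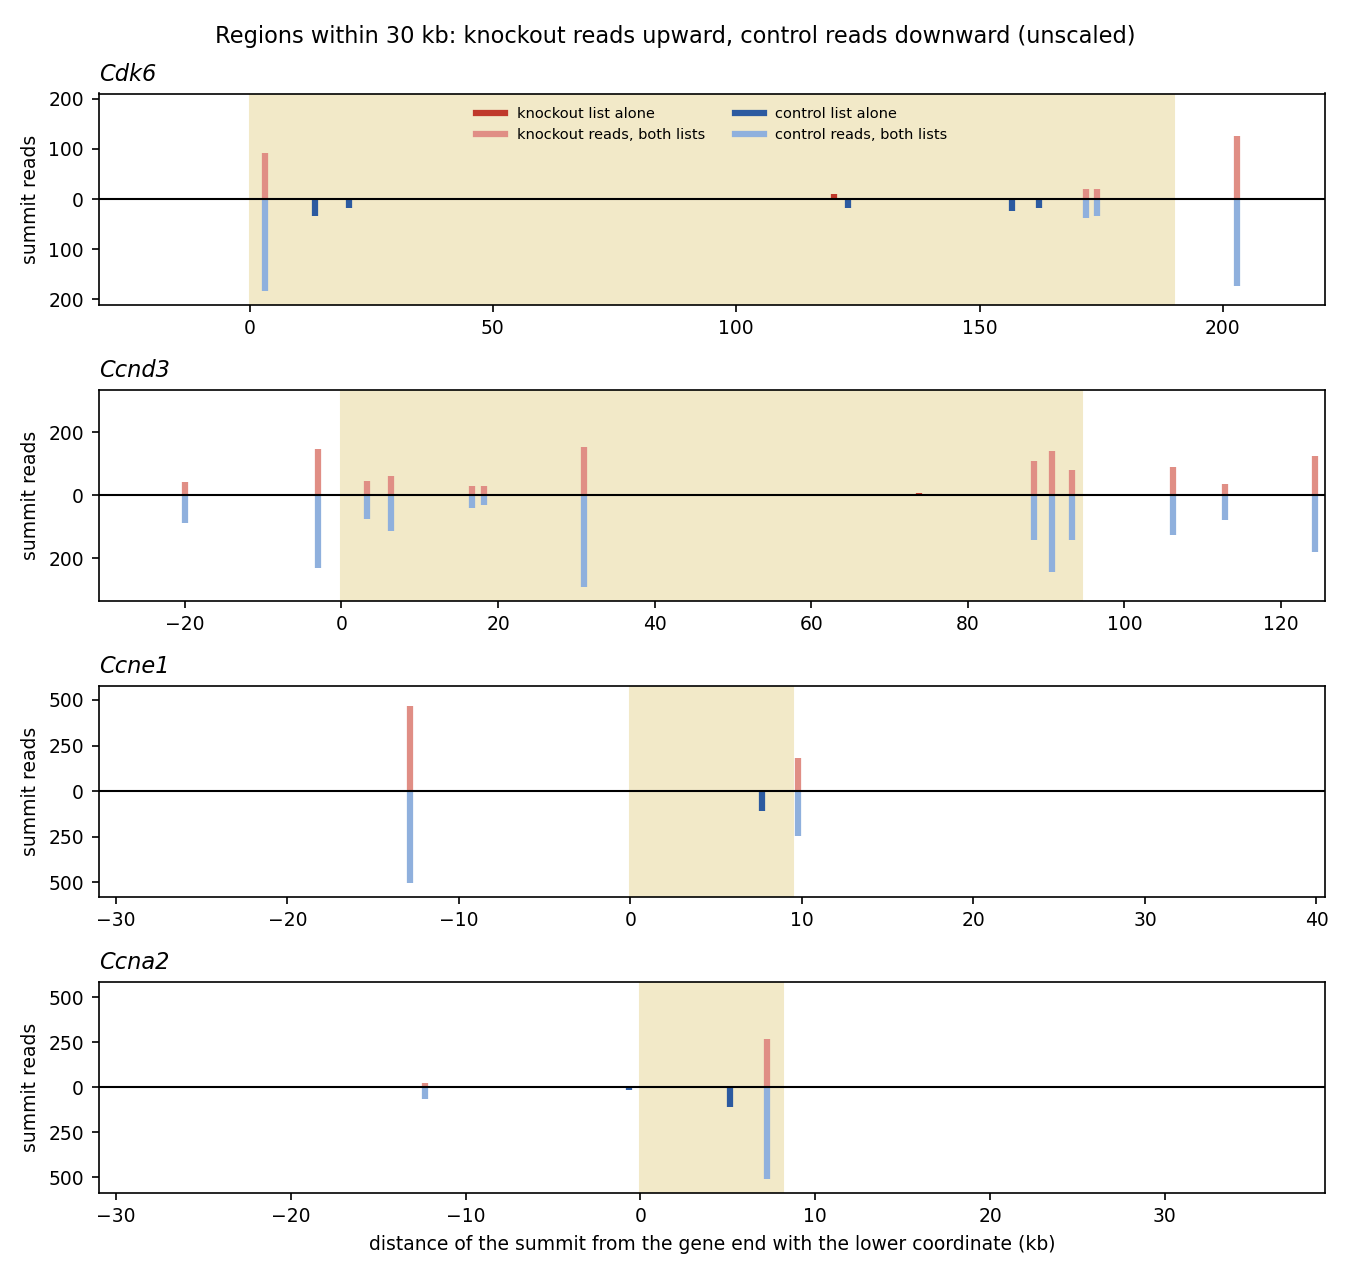
Summit reads of each region within 30 kb of Cdk6, Ccnd3, Ccne1 and Ccna2, plotted against distance in kb from the gene end with the lower coordinate, with knockout reads upward, control reads downward, both unscaled, and the gene span shaded. Dark bars are regions in 1 list alone, as at 108 control reads in Ccne1 and 110 in Ccna2, and pale bars are regions in both lists, which make up 13 of the 14 around Ccnd3.

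Within 30 kb of Ccnd3 lay the most regions, 14, of which 13 were in both lists. All 13 had intervals that included 1, with ratios from 0.741 to 1.51. The highest counts in the gene were at chr17:47535580-47536394, 30974 bp from the outer start, with 154 reads in the knockout (131 to 180) and 292 in the control (259 to 327). Its ratio of 0.824 had an interval that just reached 1 (0.673 to 1.005), and its summit was at the same base in both libraries. At chr17:47595354-47596146 there were 140 reads in the knockout and 243 in the control (0.900, 0.726 to 1.11). The region with the ratio of 1.51, chr17:47523143-47523694, had only 30 and 31 reads (0.884 to 2.58). The region in 1 list alone had 6 reads in the knockout. The 13 together had 1089 reads in the knockout and 1788 in the control.

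Outside the 10 genes themselves, 28 of the 57 regions lay up to 30 kb away, and 16 of these were within 1 kb of an end of a neighbouring gene. They cannot be assigned to a cell cycle gene from these data. The highest ratio with an interval above 1 was at LTO1, a gene next to Ccnd1, and Bc1, where chr7:144914471-144915527 had 166 reads in the knockout (142 to 193) and 173 in the control (148 to 201). The scaled ratio was 1.50 (1.20 to 1.86). In the same neighbourhood a weak region inside Gm39119 had 15 reads in the knockout and 13 in the control (1.80, 0.800 to 4.11). Near Ccne1, chr7:38084681-38086091, inside Gm30771 and 11893 bp from the gene, had 468 reads in the knockout (427 to 512) and 503 in the control (460 to 549), a ratio of 1.45 (1.28 to 1.65). Its local background had a scaled ratio of 1.29. Both ratios lay above the central 95% of shared regions with at least 100 control reads, 0.603 to 1.37. In the other direction, the region at an end of Exosc9, an RNA exosome gene beside Ccna2, had 25 reads in the knockout (16.2 to 36.9) and 64 in the control (49.3 to 81.7) at chr3:36551935-36552936, a ratio of 0.610 (0.368 to 0.982).

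Neighbours of Cdk2, Cdk4 and the inhibitors had intervals that included 1. At the ends of Rab5b and Pmel, beside Cdk2, there were 395 reads in the knockout and 613 in the control, a ratio of 1.01 (0.885 to 1.14), so the lower count at the Cdk2 start was not seen at this region 1177 bp from the gene. The intervals of the 2 ratios did not fully part, reaching 0.893 at Cdk2 and 0.885 here. At Tspan31, beside Cdk4, the ratio was 0.827 (0.563 to 1.20), with 45 and 85 reads in the knockout and control. At Lockd, a noncoding RNA gene downstream of Cdkn1b, it was 0.843 (0.671 to 1.06), with 122 and 226 reads. At a weaker region by an end of Lockd, chr6:134951210-134951702, the ratio was 0.625 (0.310 to 1.19), with 14 and 35 reads. At Faf1, next to Cdkn2c, it was 1.003 (0.799 to 1.26), with 131 and 204 reads.

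**Figure D3:**
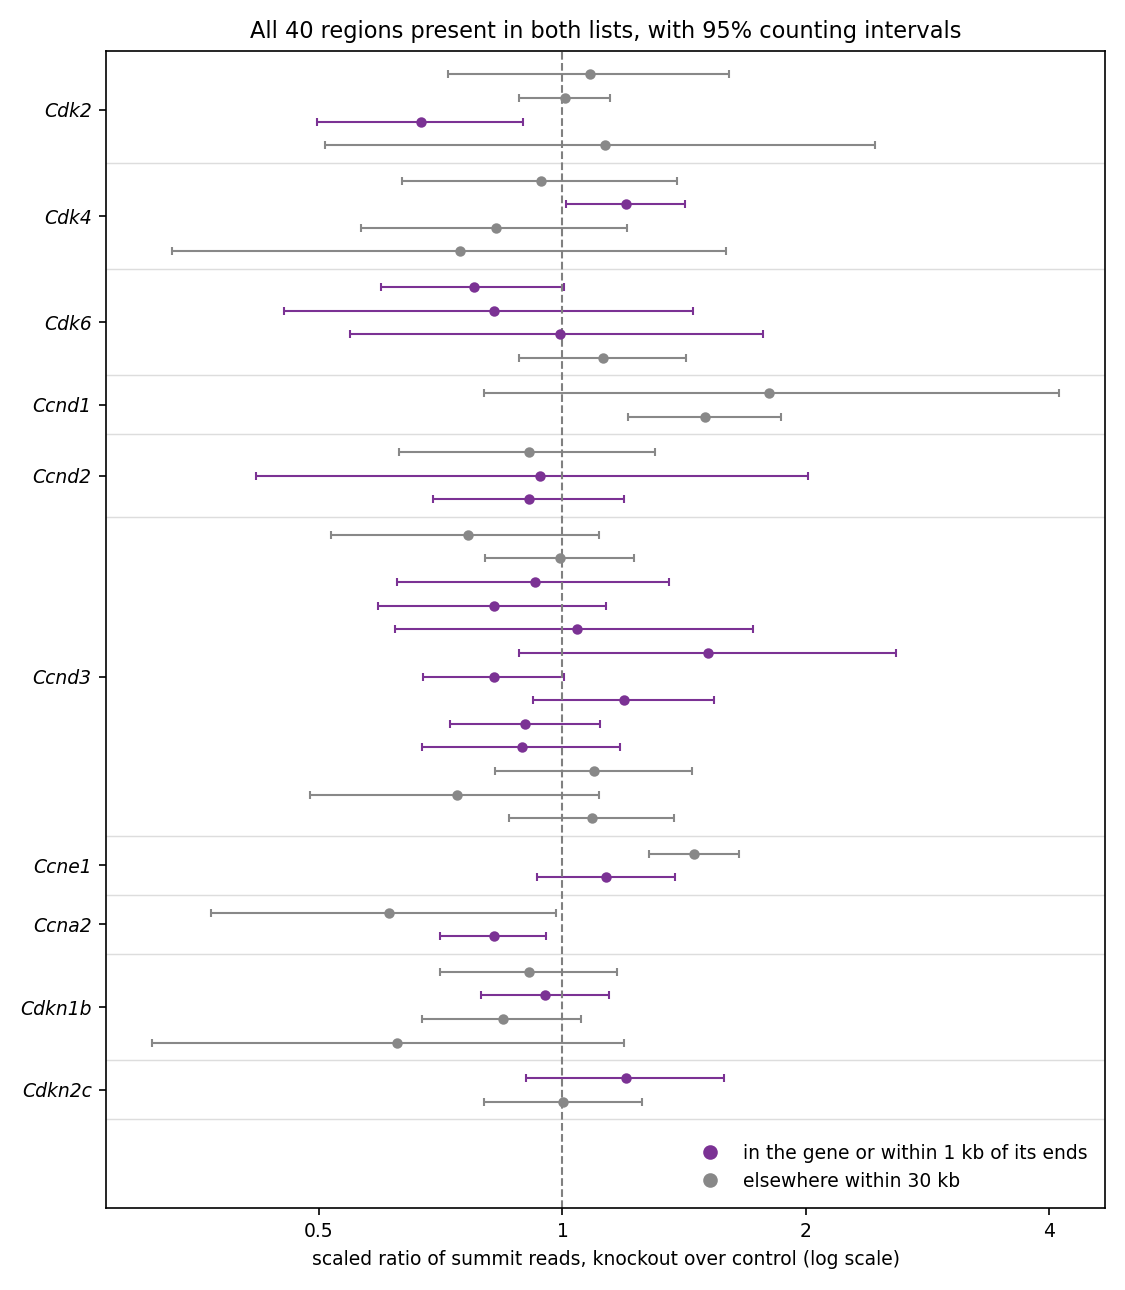
Scaled ratios of summit reads, knockout over control, on a log axis for the 40 regions in both lists, grouped by gene and ordered by position, with 95% counting intervals, purple for regions in a gene or within 1 kb of its ends and grey for the others. The intervals of 34 regions include 1, and those of Ccnd3 all do.

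Over the 40 regions in both lists, 3 had an interval above 1 and 3 below 1, which is 7.5% each, beside 7.41% and 8.47% of all 18481 shared regions with a ratio. Those above were at Cdk4, LTO1 and near Ccne1, and those below at Cdk2, Ccna2 and Exosc9. The share of called regions near these genes was thus close to that of the genome. Of the 40, 16 had a ratio above 1 and 24 below 1, and the median log2 ratio was -0.09, beside 0.00 over all shared regions. For the 19 regions in or at the genes the median was -0.11, and for the 21 outside them -0.01. The SD of log2 ratios was 0.34 near the genes and 0.46 over all shared regions, where medians of summit reads were also lower, at 37 in the knockout and 61 in the control, against 84.5 and 134.5 near the genes.

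**Figure D4:**
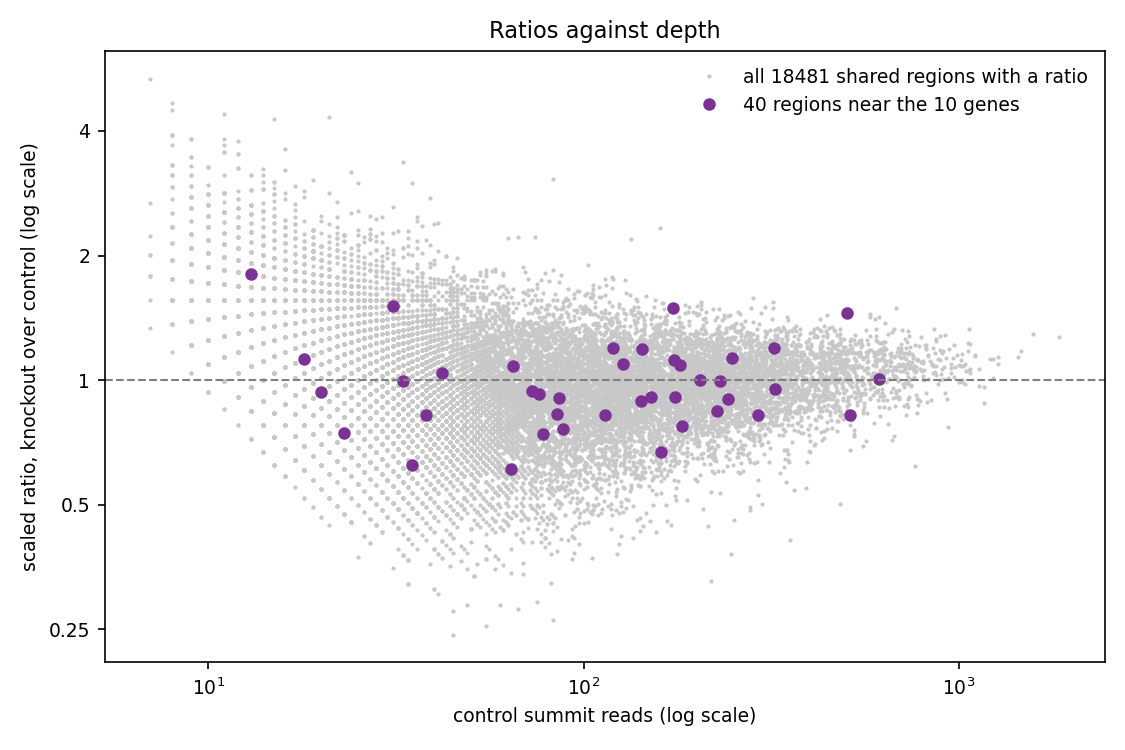
Scaled ratio of knockout over control against control summit reads, both on log axes, for all 18481 shared regions with a ratio (grey) and the 40 near the 10 genes (purple). The purple points lie within the cloud of grey points, with LTO1 (1.50) and the region near Ccne1 (1.45) towards its upper edge.

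Other readouts of the same regions were set beside those of all shared regions. Summits in the 2 libraries were within 100 bp of each other at 32 of the 40 regions (80%), beside 70.8% of all shared regions, with a median gap of 40 bp against 51 bp. Peaks were narrower in the knockout list at 33 of 40 regions (82.5%), beside 70.4% of all shared regions. Median widths were 837 bp in the knockout and 909 bp in the control, against 789 bp and 890 bp over all shared regions. The local background, scaled for depth, was lower in the knockout at 31 of 40 regions (77.5%), beside 63.4%. The knockout library was shallower, and the part of depth in these widths was not tested.

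The counts of regions and of calls depended on the distance limit of 30 kb, as given with the alternatives below. Among called regions outside the genes, that inside Gm30771 lay 11893 bp from Ccne1. The one at Exosc9 lay 11929 bp from Ccna2, and the one at LTO1 14404 bp from Ccnd1. The farthest region inside the limit lay 29337 bp from Ccnd3, at an end of Usp49, with 126 reads in the knockout and 181 in the control. The nearest outside it lay 31247 bp from Ccnd1 and was in the knockout list alone, with 9 reads. Next came one 32343 bp from Cdk2, with 9 reads in the knockout and 31 in the control.

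Of 46 other cell cycle genes, 43 had a start or gene-end region in both lists, and 5 had an interval above 1 and 5 below 1. This is beside the 9.02% and 7.43% over all such regions. The sum over the 43 regions was 6094 reads in the knockout and 9276 in the control, a scaled ratio of 1.03 (0.993 to 1.06), and the median log2 ratio was 0.06. One gene, Cdc25b, a phosphatase gene that activates CDK1, had its region in the control list alone, with 58 reads (44.0 to 75.0). Ccna1 and Fbxw7 had none in either list.

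The other CDK inhibitor genes all had ratios above 1. Cdkn1a, which encodes p21, had 76 reads in the knockout and 83 in the control (1.43, 1.03 to 1.98), and Cdkn2d, which encodes p19, had 543 and 733 (1.16, 1.03 to 1.29). The intervals of Cdkn1c, Cdkn2a and Cdkn2b, with ratios of 1.36, 2.19 and 1.16, included 1, and Cdkn2a had only 14 reads in the knockout and 10 in the control. Summed over the 5, there were 720 reads in the knockout and 934 in the control. With Cdkn1b and Cdkn2c, 6 of 7 inhibitor genes had a ratio above 1, of which 2 had an interval above 1. Over all protein-coding genes, 4702 of 9144 such regions had a ratio above 1, and 9.02% had an interval above 1.

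Among RB and E2F family genes, 2 of 19 had an interval above 1 and 3 below, where 9.02% and 7.43% of all such regions did. Tfdp1, an E2F dimer partner, had 106 reads in the knockout and 105 in the control (1.58, 1.19 to 2.08), whereas its relative Tfdp2 had 83 and 200 (0.648, 0.496 to 0.841). E2f4 had 38 and 31 reads (1.91, 1.16 to 3.18) at a gene end. Mybl2, a partner of the MuvB complex, had 166 and 333 (0.778, 0.642 to 0.941), and Foxm1, a mitotic transcription factor gene, 17 and 48 (0.553, 0.298 to 0.979) at a gene end. Of 10 other cyclin, CDK and CKS genes, Ccnb2, a mitotic cyclin gene, had an interval below 1, with 40 reads in the knockout and 101 in the control (0.618, 0.418 to 0.900). Cdk1 and Ccnb1, by contrast, had ratios of 1.07 and 0.886 that included 1. Wee1, a kinase gene that restrains CDK1, had 282 and 369 reads (1.19, 1.02 to 1.40) at a gene end. Cdc20, an activator of the anaphase-promoting complex, had 95 and 199 (0.746, 0.578 to 0.957).

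**Figure D5:**
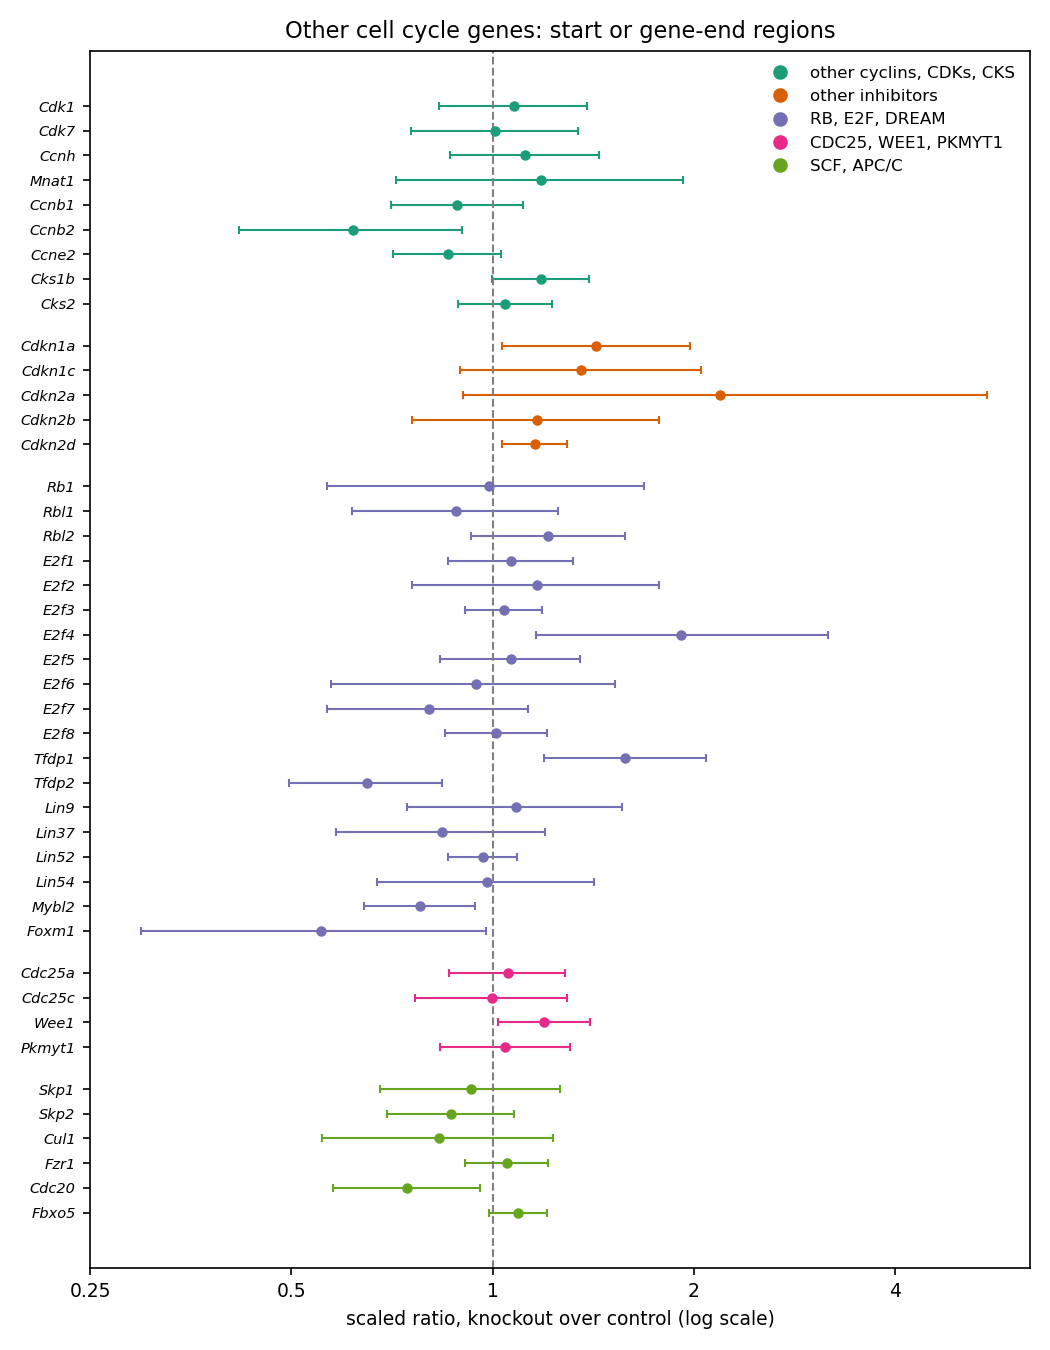
Scaled ratios of knockout over control on a log axis at the start or gene-end regions of 43 other cell cycle genes, coloured by role, with 95% counting intervals. The 5 other inhibitor genes all lie right of 1, and Ccnb2, Tfdp2, Mybl2, Foxm1 and Cdc20 have intervals left of it.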

How the data were processed

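Per the submitters' processing notes, the build was mm10 and the tools included MACS2 (version 2.2.7.1), Bowtie2 (2.4.4), Trimmomatic (0.39), Picard (2.26.2) and deepTools (3.5.1), with roles and settings not given there. The authors deposited 1 narrowPeak list per sample. The deposited score, which lies within 1 of 10 times −log10 q, was not used. The deposited fold is the ratio of summit pileup to local background, each with a pseudocount of 1, and the deposited −log10 p-value and q-value test the pileup against that background.

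Summit reads and background were recovered as the whole number and background that give the deposited fold and −log10 p. In both lists 99.99% of peaks gave such a solution, with a largest allowed relative misfit of 1e-05. Recovery was tested on simulated peaks built with the same formulas and returned 100% of 2000 in each list. This checks the inversion and rounding only, not whether the deposited values were made with those formulas. The lowest background, 0.971 reads in the knockout list and 1.52 in the control list, set the relative depth of 0.640. The absolute depth of the libraries is unknown. In each list 5 peaks above 3000 reads had no ratio.

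A gene's start region overlapped its RefSeq start window, or, for genes with no window here, lay within 1 kb of a gene end. Among several, regions in both lists were taken first, then the one with most reads. Intervals are exact Poisson for reads, exact conditional binomial for ratios and Clopper-Pearson for shares. They assume independent reads, although no molecular identifiers are given to remove PCR copies. With 1 library per genotype no p-value was computed. The text names all 10 genes, their start regions, regions whose interval left out 1 or that were in 1 list alone with at least 20 reads, and other listed genes by the same criteria; further regions were named after their values were seen. Members and lists were chosen with earlier results of these data known. Values were computed with pandas 2.3.3, SciPy 1.17.1 and NumPy 2.4.6 in Python 3.11.15 and plotted with matplotlib 3.10.9.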

Additional observations from a re-analysis of the deposited data

How the results depend on the processing

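Each of 8 alternatives was applied in turn. Depth taken from the median shared region, equal numbers of 22348 top peaks and a stricter overlap, by at least 50% of either peak, kept each count within 1.5 times the reported one. Within 10 kb there were 24 regions in both lists and 1 with an interval above 1. Within 50 kb there were 9 in the knockout list alone and 5 with an interval below 1. With peaks of −log10 q of at least 5, there were 0 regions in the knockout list alone and 13 in the control list alone, not all of them the reported 13. Where the member had to be the nearest gene, there were 19 regions in both lists, 2 in the knockout list alone, 8 in the control list alone and 1 with an interval above 1. The median log2 ratio ranged from -0.12 to -0.01. The ratio of deposited folds was 0.999 at Ccna2, outside the counting interval of its scaled ratio, and 0.892 at Cdk2 and 1.08 at Cdk4. At Ccnd2 and Cdkn1b it was 1.08 and 1.10, where the scaled ratios were below 1, at 0.910 and 0.952. Both lay within the counting intervals, but the direction at these genes depended on the measure. No paired analysis was possible because the 2 libraries carry different replicate numbers and there is 1 per genotype; for the same reason no replicate could be left out. Depth limits what an absence from 1 list shows, though by how much was not tested. At 20 control reads, as inside Marchf9, the knockout library would give 12.8 at equal accessibility. Of listed knockout peaks of like background, 4.08% had fewer, and the lowest had 9. This share covers listed peaks only, so it does not give how often such a peak goes unlisted.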
